A study of Mus musculus with 4 samples.

Results

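The genes described here are 40 mouse genes of the cell division cycle, taken by symbol from the table built on RefSeq transcript models, which holds 19797 gene symbols. Here 11 were grouped as G1/S genes (the D and E cyclins and their kinases Cdk4, Cdk6 and Cdk2, with E2f1, Cdkn1b and Cdc25a). Another 8 were grouped as S phase genes (replication licensing, Pcna and the synthesis of DNA precursors). Of these, Orc1, Cdc6 and Cdt1 act in licensing, which takes place in G1. The other 21 were grouped as G2/M genes (cyclins A2, B1 and B2 with Cdk1, mitotic kinases, the spindle checkpoint, kinetochores and spindle motors). All 40 were found in the table. The question was how their transcript levels in cells that had switched on Zscan4 compared with those in cells that had not.

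The cells were MC1-ZE7, a mouse embryonic stem (ES) cell line of the strain 129S6/SvEvTac in which a Zscan4 promoter drives the green fluorescent protein Emerald. Sorted cells of 2 kinds were compared, both from feeder-free culture in serum with leukemia inhibitory factor and with no other treatment. The Em+ group was the high Emerald fraction (2 libraries), and the Em- group was the Emerald-negative fraction (2 libraries). Total RNA was depleted of ribosomal RNA before stranded sequencing. No label says whether replicate libraries had their own cultures or sorts, and the spread behind each p-value may therefore be only technical. Groups follow the sample titles and the cell type field, whereas the description field names the opposite fraction for every sample. In bulk RNA of this kind, fewer cells in a phase and less RNA per cell cannot be told apart.

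Progress through the cell cycle is driven by cyclin-dependent kinases, which are active only when bound to a cyclin. D-type cyclins with Cdk4 or Cdk6 and E-type cyclins with Cdk2 lead cells from G1 into S phase, where E2F factors switch on the genes of DNA replication. Cyclins A and B with Cdk1 then lead into mitosis. ES cells are known for a short G1 phase and for E- and A-type cyclin activity that changes little over the cycle. In the promoters of genes that peak in G2 and M, 2 short elements are well known, the CCAAT box bound by NF-Y and the cell cycle genes homology region (CHR) bound by the DREAM and MMB complexes.

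RefSeq counts per library were 17927765 and 16468218 in the Em+ libraries, against 18364973 and 18953217 in the Em- libraries. Em+ replicate 2 stood apart, with 43.4% of its library total in RefSeq transcripts, against 49.0% in Em+ replicate 1 and 51.1% and 50.7% in the Em- libraries, and with 7.95% of its RefSeq counts on the ribosomal RNA precursor Rn45s, against 3.93% to 4.33% in the others. The 40 genes took 0.938% and 0.866% of the RefSeq counts in Em+ libraries and 0.916% and 0.929% in Em- libraries. As a check of the titles, the 6 Zscan4 genes summed to 212.4 and 215.6 CPM (counts scaled to the RefSeq total of the library) in Em+ libraries, against 1.80 and 2.27 CPM in Em- libraries. The 6 ES cell markers were present in every library, at a summed 891 and 683 FPKM (fragments per kilobase of transcript, scaled to library size) in Em+ and 950 and 940 FPKM in Em- libraries. Of the fibroblast markers, 4 of 8 were in the table, with Col3a1, Postn, Lum and Dcn not among them. They summed to 7.96 and 6.46 FPKM in Em+ and 4.94 and 5.18 FPKM in Em- libraries, mostly from Thy1. Endoderm markers summed to 2.62 to 3.05 FPKM over the libraries, mesoderm markers to 3.68 to 4.31 FPKM and neural markers to 11.4 to 14.7 FPKM.

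Promoters are shown because genes of the different phases are known to be switched on through different promoter elements. RefSeq promoter windows (GRCm38.p6, from 250 bases before to 50 bases after the transcript start) were found for 31 of the 40 genes. The motifs searched, on both strands, were the CHR as TTTGAA, the CCAAT box as CCAAT and an E2F type motif as TTCCCGC or TTGGCGC. Matches of different motifs overlapped in 1 place. The transcript starts behind the Cdk6, Mad2l1 and Cdk4 windows lay 419, 247 and 68 bases from those of the measured transcripts. None of the searched motifs was found in these windows. The CHR letters were in 11 of 16 G2/M windows (68.8%), in 0 of 8 G1/S windows and in 0 of 7 S windows, beside 17.9% of all 32851 windows. The CCAAT letters were in 14 G2/M windows (87.5%), 4 G1/S windows (50%) and 4 S windows (57.1%), beside 37.4% of all windows. The E2F type letters were in 3 S windows (42.9%), 2 G1/S windows (25%) and 3 G2/M windows (18.8%), beside 6.81% of all windows. A match is a description of letters, not of binding. The 200 bases before the start are printed for the 2 genes of each phase with the lowest p among those with a window, and for Top2a and Ccnb2, the G2/M genes with the highest level among the rest. Motif matches are in capitals, in either orientation, so ATTGG is a CCAAT box and TTCAAA a CHR on the opposite strand.
Cdk2, chr10:128705052-128705251, minus strand: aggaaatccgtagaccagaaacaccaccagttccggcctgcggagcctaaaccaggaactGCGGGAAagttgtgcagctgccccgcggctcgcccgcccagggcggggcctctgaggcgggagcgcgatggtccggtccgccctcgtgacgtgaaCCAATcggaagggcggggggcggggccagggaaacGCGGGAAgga
Ccnd3, chr17:47593267-47593466, plus strand: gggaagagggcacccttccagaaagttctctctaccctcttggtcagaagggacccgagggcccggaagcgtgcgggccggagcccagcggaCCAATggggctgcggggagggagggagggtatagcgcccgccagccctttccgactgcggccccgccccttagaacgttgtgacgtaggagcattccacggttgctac
Rrm2, chr12:24708054-24708253, plus strand: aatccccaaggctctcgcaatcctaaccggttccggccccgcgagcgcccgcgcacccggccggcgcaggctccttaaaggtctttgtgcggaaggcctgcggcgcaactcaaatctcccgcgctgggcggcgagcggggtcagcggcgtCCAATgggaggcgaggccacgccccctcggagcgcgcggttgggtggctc
Cdc6, chr11:98907951-98908150, plus strand: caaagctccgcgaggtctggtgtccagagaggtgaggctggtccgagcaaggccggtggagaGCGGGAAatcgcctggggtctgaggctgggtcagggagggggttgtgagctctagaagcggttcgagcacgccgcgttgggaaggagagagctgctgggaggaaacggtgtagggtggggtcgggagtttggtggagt
Cenpe, chr3:135212363-135212562, plus strand: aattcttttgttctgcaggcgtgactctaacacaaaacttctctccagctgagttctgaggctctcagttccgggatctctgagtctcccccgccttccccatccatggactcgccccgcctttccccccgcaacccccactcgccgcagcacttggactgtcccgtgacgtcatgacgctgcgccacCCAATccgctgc
Cdk1, chr10:69352913-69353112, minus strand: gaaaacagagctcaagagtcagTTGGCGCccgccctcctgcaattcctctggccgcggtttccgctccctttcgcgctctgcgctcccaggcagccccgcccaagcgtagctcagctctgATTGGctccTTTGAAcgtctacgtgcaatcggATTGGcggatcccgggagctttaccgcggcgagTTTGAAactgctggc
Top2a, chr11:99024190-99024389, minus strand: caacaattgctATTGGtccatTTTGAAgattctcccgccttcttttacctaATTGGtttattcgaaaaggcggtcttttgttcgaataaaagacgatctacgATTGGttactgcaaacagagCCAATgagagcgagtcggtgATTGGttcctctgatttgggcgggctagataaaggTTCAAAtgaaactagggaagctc
Ccnb2, chr9:70421555-70421754, minus strand: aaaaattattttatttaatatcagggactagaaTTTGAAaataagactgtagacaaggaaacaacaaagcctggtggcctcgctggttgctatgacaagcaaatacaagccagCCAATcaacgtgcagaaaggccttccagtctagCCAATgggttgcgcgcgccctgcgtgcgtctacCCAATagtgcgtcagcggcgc
The Cdk1 and Top2a promoters each hold a pair of CHR matches, the nearer ones at positions -15 and -23 from the start, together with CCAAT boxes. Ccnb2 holds CCAAT boxes at -87, -54 and -21. The Cenpe window differs from these in having a single match, a CCAAT box at -12, and no CHR letters. Among the G1/S promoters, Cdk2 holds E2F type matches at -140 and -10, and Ccnd3 holds none.

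Most G1/S genes stood lower in Em+ than in Em- cells by a small amount, S phase genes were mixed but mostly lower, and G2/M genes stood on both sides of 0. Levels were compared with edgeR's quasi-likelihood test over the 12050 genes with a mean of at least 1 FPKM, adjusted by the Benjamini-Hochberg method with a threshold of 0.05. Counts of Em- replicate 1 were computed from its deposited FPKM, since its count column is empty. Only Ccnd2, the cyclin D2 gene, was below the filter, so 39 genes were tested. Of these 39, 1 rose in Em+ cells (Cenpe) and 0 fell, where 4.64% of all tested genes were called, 3.82% higher and 0.822% lower. Before adjustment, 4 of the 39 were higher and 10 lower at p under 0.05 in edgeR, where 14.5% of all tested genes were higher and 10.7% lower. DESeq2 called 1 higher (Cenpe) and 1 lower (Ccnd3), where it called 528 of the 12050 tested genes higher and 151 lower. With limma on log2(FPKM + 1), 0 of the 39 were called, beside 226 higher and 67 lower over all tested genes. The median log2 fold change of Em+ over Em- was -0.23 over the 10 G1/S genes tested, -0.17 over the 8 S genes and 0.034 over the 21 G2/M genes, beside 0.00317 over all tested genes.

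**Figure D1:**
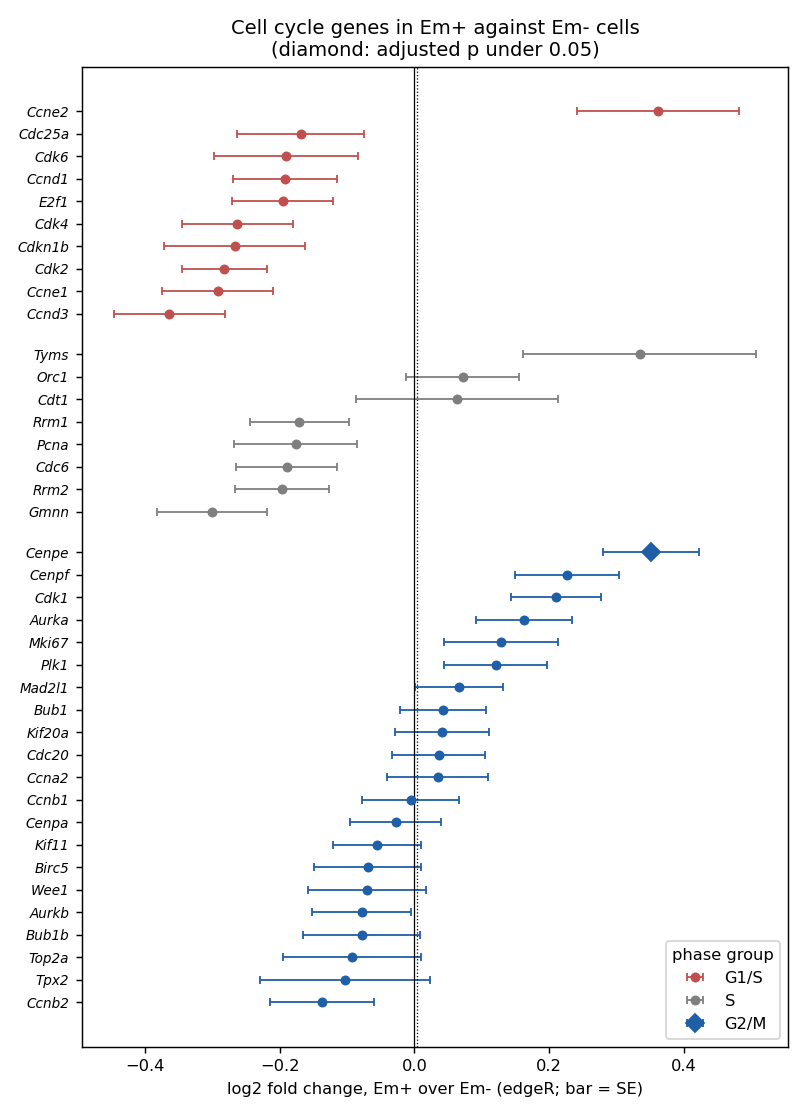
Log2 fold change of Em+ over Em- cells (x axis) for the 39 genes tested (y axis), by phase, with points for the edgeR estimate, bars for its standard error and a dotted line for the median of all tested genes. In G1/S, 9 of 10 genes lie left of 0, and Cenpe, the diamond, is the gene with an adjusted p under 0.05.

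Of the 10 G1/S genes tested, 9 had both Em+ libraries below both Em- libraries and 1 had both above, with no overlap in any of them. Over all tested genes, 29.7% had both Em+ libraries below and 29.7% had both above. At an unadjusted p under 0.05 in edgeR, 7 were lower and 1 higher (10.7% and 14.5% of all tested genes). After adjustment 0 passed in edgeR or limma, and 1 was lower in DESeq2, where 151 of all 12050 tested genes were lower. Levels below are CPM scaled by the TMM method, which compare a gene between libraries. FPKM compares genes with each other.

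The D-type cyclins bind Cdk4 and Cdk6 and act first in G1. Ccnd3 (chr17:47593467-47599688, mm10) had 73.2 and 65.7 CPM in Em+ libraries, against 92.2 and 86.6 CPM in Em- libraries. The groups did not overlap, and the log2 fold change of -0.36 (SE 0.08) had an adjusted p of 0.0524 in edgeR, just outside the threshold. Ccnd3 passed as lower in DESeq2, where it was the only one of the 40 genes to do so, and with Em+ replicate 1 (-0.44) or Em+ replicate 2 (-0.29) left out. It did not pass with Em- replicate 1 (-0.32) or Em- replicate 2 (-0.41) left out or in limma, and its adjusted p ranged from 0.000324 to 0.427 over 13 alternatives. Ccnd1 stood at 41.6 and 38.7 CPM in Em+ libraries, against 45.6 and 46.3 CPM in Em- libraries, a log2 fold change of -0.19 (SE 0.08). Ccnd2 was listed at 0.445 and 0.338 FPKM in Em+ and 0.395 and 0.449 FPKM in Em- libraries, the lowest level among the D-type cyclins. By mean FPKM over the 4 libraries, Ccnd3 (19.5) stood above Ccnd1 (5.48) and Ccnd2 (0.407).

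Their kinase Cdk4 (chr10:127063603-127067282) had the highest level of the G1/S genes, a mean of 79.0 FPKM. It had 215 and 185 CPM in Em+ libraries, against 242 and 237 CPM in Em- libraries, and a log2 fold change of -0.26 (SE 0.08, adjusted p = 0.114). Both Em+ libraries were low, Em+ replicate 2 more so, and the value without it was -0.16. Cdk6, which can take the place of Cdk4, was at a mean of 2.80 FPKM, with 13.7 and 13.0 CPM in Em+ libraries and 15.2 and 15.3 CPM in Em- libraries (log2 fold change -0.19, SE 0.11).

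Cdk2 (chr10:128697939-128705051), the partner of the E-type cyclins, had 130 and 125 CPM in Em+ libraries, against 158 and 152 CPM in Em- libraries. The replicates lay close together in each group, and the log2 fold change was -0.28 (SE 0.06) with an adjusted p of 0.0519, the lowest of the G1/S genes. The E-type cyclins went opposite ways. Ccne1 (chr7:38097984-38107490) had 67.7 and 60.5 CPM in Em+ libraries, against 77.8 and 79.2 CPM in Em- libraries, a log2 fold change of -0.29 (SE 0.08, adjusted p = 0.0893). Ccne2 (chr4:11191709-11204779) had 15.8 and 17.7 CPM in Em+ libraries, against 13.7 and 12.3 CPM in Em- libraries, a log2 fold change of 0.36 (SE 0.12, adjusted p = 0.127). It was the one G1/S gene with both Em+ libraries above both Em- libraries, and it is the less abundant of the pair, at a mean of 2.34 FPKM beside 17.7 FPKM for Ccne1.

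The remaining G1/S genes, Cdkn1b, E2f1 and Cdc25a, lay on the low side too. Cdkn1b encodes p27, an inhibitor of cyclin E and Cdk2 complexes, and had 105 and 83.8 CPM in Em+ libraries, against 114 and 113 CPM in Em- libraries. Its log2 fold change of -0.27 had an SE of 0.10, and the gap between the Em+ libraries was larger than that between Em+ replicate 1 and the Em- libraries. It was -0.44 when Em+ replicate 1 was left out and -0.12 when Em+ replicate 2 was. E2f1, an activator of S phase genes, had 32.4 and 31.6 CPM in Em+ libraries, against 36.5 and 36.8 CPM in Em- libraries (log2 fold change -0.20, SE 0.07). Cdc25a, the phosphatase that activates Cdk2, had 35.3 and 36.8 CPM in Em+ libraries, against 43.6 and 37.4 CPM in Em- libraries (log2 fold change -0.17, SE 0.09). That of Cdc25a was -0.059 with Em- replicate 1 left out and -0.28 with Em- replicate 2 left out.

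**Figure D2:**
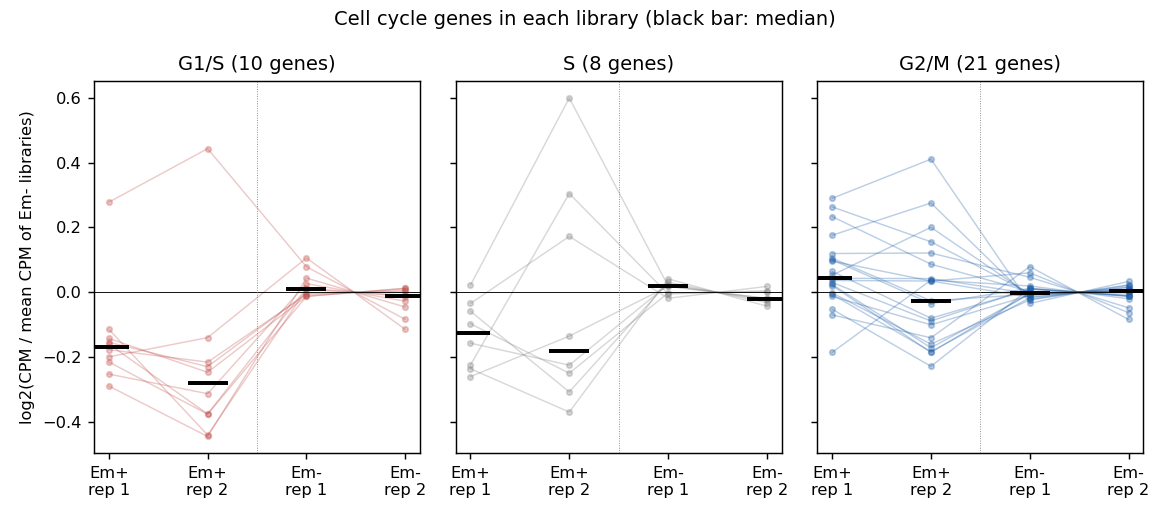
Log2 ratio of CPM to the mean of the Em- libraries (y axis) in each of the 4 libraries (x axis) for each gene (thin lines) and the median of each phase (black bars). The G1/S medians are -0.17 and -0.28 in the Em+ libraries, and the G2/M medians are 0.043 and -0.026.

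The S phase genes held 5 with both Em+ libraries below both Em- libraries, 1 with both above and 2 that overlapped. Over all tested genes, both Em+ libraries were below in 29.7% and above in 29.7%. Of the S genes, 3 were lower and 0 higher at an unadjusted p under 0.05 in edgeR (all tested genes: 10.7% and 14.5%). After adjustment, 0 of the S genes passed in edgeR, DESeq2 or limma. In replication licensing, Orc1, Cdc6 and Cdt1 load the replicative helicase in G1, and geminin (Gmnn) blocks Cdt1 after licensing. Gmnn (chr13:24751845-24761937) had 67.2 and 61.3 CPM in Em+ libraries, against 81.5 and 76.8 CPM in Em- libraries. Its groups did not overlap, and its log2 fold change of -0.30 (SE 0.08, adjusted p = 0.0829) had the lowest p of the S genes.

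Its target Cdt1 is singled out here after its values were seen. Cdt1 (chr8:122568015-122573130) had 117 and 169 CPM in Em+ libraries, against 136 and 137 CPM in Em- libraries. The Em+ libraries lay on either side of an almost identical Em- pair, and the log2 fold change of 0.063 had an SE of 0.15 (adjusted p = 0.824). Without Em+ replicate 1 Cdt1 was called higher (0.30), and without Em+ replicate 2 it was called lower (-0.23). Orc1 had 88.1 and 102 CPM in Em+ libraries and 89.0 and 91.3 CPM in Em- libraries, also overlapping (log2 fold change 0.072). Cdc6 had 44.8 and 42.7 CPM in Em+ libraries, against 50.7 and 49.1 CPM in Em- libraries (log2 fold change -0.19, SE 0.08).

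Ribonucleotide reductase makes deoxyribonucleotides and is built from subunits encoded by Rrm1 and Rrm2. Rrm2 (chr12:24708254-24714146) had the highest level of the S genes, a mean of 51.0 FPKM, with 206 and 224 CPM in Em+ libraries, against 249.5 and 243 CPM in Em- libraries (log2 fold change -0.20, SE 0.07, adjusted p = 0.144). Rrm1 (chr7:102441695-102469771) had 304 and 274 CPM in Em+ libraries, against 325 and 326 CPM in Em- libraries (log2 fold change -0.17, SE 0.07, adjusted p = 0.201). Both subunits were below the Em- level in each Em+ library, and Rrm1 was at -0.098 without Em+ replicate 2.

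Pcna, the sliding clamp of DNA polymerases (chr2:132249286-132253180), had 95.9 and 80.7 CPM in Em+ libraries, against 102 and 97.7 CPM in Em- libraries (log2 fold change -0.18, SE 0.09, adjusted p = 0.272). That value moved to -0.31 with Em+ replicate 1 left out and to -0.060 with Em+ replicate 2 left out. Tyms, which encodes thymidylate synthase (chr5:30058200-30073625), had 22.4 and 33.4 CPM in Em+ libraries, against 22.3 and 21.7 CPM in Em- libraries. Of the Tyms counts, 96.9% lay on a RefSeq model classed as non-coding. The protein-coding model had 11 to 17 counts per library. Em+ replicate 1 was level with the Em- libraries and Em+ replicate 2 carried the log2 fold change of 0.33 (SE 0.17, adjusted p = 0.269), so the value without Em+ replicate 2 was 0.021 and that without Em+ replicate 1 was 0.60.

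**Figure D3:**
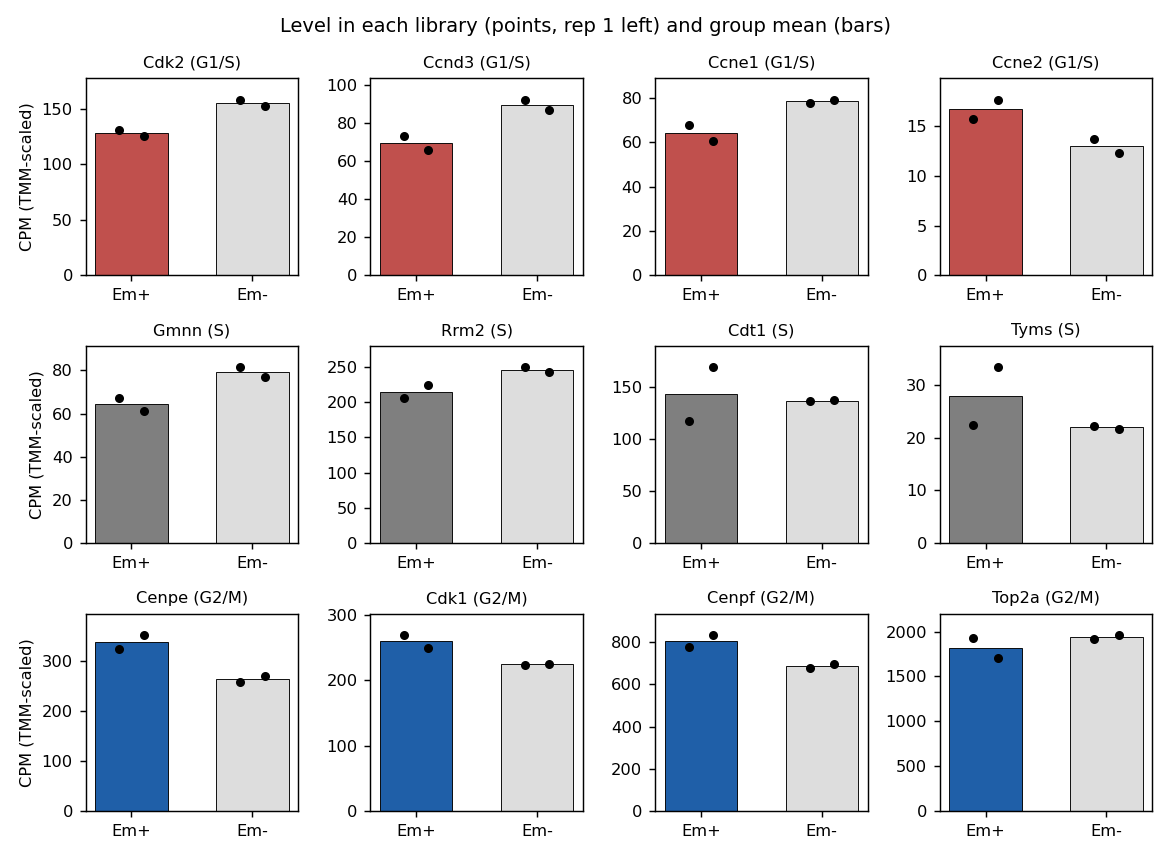
TMM-scaled CPM (y axes, from 0) of 12 genes in each library (points) with group means (bars), Em+ left of Em-. Cenpe had 323 and 351 CPM in Em+ against 258 and 270 CPM in Em- libraries, while the Cdt1 points of the Em+ libraries lie on either side of those of Em-.

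Of the 21 G2/M genes, 11 had a positive and 10 a negative log2 fold change, and the range was -0.14 to 0.35. Over all tested genes, 6112 were positive and 5938 negative. In 8 genes both Em+ libraries were above both Em- libraries, in 2 both were below, and 11 overlapped. Over all tested genes, both Em+ libraries were above in 29.7% and below in 29.7%. At an unadjusted p under 0.05, 3 of the 21 were higher and 0 lower, beside 14.5% higher and 10.7% lower over all tested genes, so the count of higher genes is near that background. Cenpe, the kinetochore motor that carries chromosomes to the metaphase plate (chr3:135212563-135273540), had 323 and 351 CPM in Em+ libraries, against 258 and 270 CPM in Em- libraries. The groups did not overlap, and Cenpe rose 1.28-fold (log2 fold change 0.35, SE 0.07, adjusted p = 0.0392 in edgeR). The call did not survive leaving out either Em- library, where the log2 fold change was 0.31 (replicate 1 left out) or 0.39 (replicate 2 left out). In edgeR it was also lost with no filter (adjusted p = 0.0597), with a filter of 5 FPKM (0.0602) and in the known-gene table (0.0548). Both limma fits lost the call too. Over 13 alternatives the adjusted p ranged from 5.2e-05 to 0.493. The direction was the same in each of them.

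Other genes of the kinetochore and its checkpoint lay on both sides of 0. Cenpf, a large kinetochore and nuclear envelope protein (chr1:189640614-189688086), had 778 and 833 CPM in Em+ libraries, against 678 and 699 CPM in Em- libraries (log2 fold change 0.23, SE 0.08, adjusted p = 0.136). Cenpa, the histone H3 variant of centromeres, had 151 and 139 CPM in Em+ libraries and 149 and 147 CPM in Em- libraries, which overlapped (log2 fold change -0.027). The spindle checkpoint genes Bub1 (0.043), Bub1b (-0.078), Mad2l1 (0.066) and Cdc20 (0.036), the last encoding the activator of the anaphase-promoting complex, had log2 fold changes close to 0. Bub1 had 394.6 and 394.4 CPM in Em+ libraries and 382 and 384 CPM in Em- libraries, without overlap but 1.03-fold apart.

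Cdk1, the mitotic kinase (chr10:69336635-69352912), had 269 and 249.96 CPM in Em+ libraries, against 224 and 225 CPM in Em- libraries. The log2 fold change of 0.21 (SE 0.07) had an adjusted p of 0.116. The cyclins that bind it lay closer to the Em- level or below it. Ccna2, cyclin A2 (chr3:36564865-36571996), had 509 and 464 CPM in Em+ libraries and 479 and 471 CPM in Em- libraries, which overlapped (log2 fold change 0.034, SE 0.075, adjusted p = 0.804). Ccnb1, cyclin B1, overlapped too, at 254 and 229.6 CPM in Em+ and 244 and 241 CPM in Em- libraries (log2 fold change -0.0056). Ccnb2, cyclin B2 (chr9:70407689-70421554), had 296 and 262 CPM in Em+ libraries, against 309.9 and 305 CPM in Em- libraries, the lowest log2 fold change of the G2/M genes (-0.14, SE 0.08, adjusted p = 0.302). For Ccnb2 it was -0.23 with Em+ replicate 1 left out and -0.054 with Em+ replicate 2 left out. Wee1, the kinase that restrains Cdk1, had 79.9 and 93.2 CPM in Em+ libraries and 92.1 and 89.6 CPM in Em- libraries, with Em+ replicate 1 alone on the low side.

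Top2a, the topoisomerase that untangles sister chromatids (chr11:98992947-99024189), had the highest level of all 40 genes, a mean of 174 FPKM. It had 1930.2 and 1708 CPM in Em+ libraries and 1917 and 1961 CPM in Em- libraries, which overlapped (log2 fold change -0.092, SE 0.10, adjusted p = 0.600). Mki67, the proliferation marker that coats mitotic chromosomes, had 853 and 945 CPM in Em+ libraries, against 818 and 827 CPM in Em- libraries (log2 fold change 0.13, SE 0.08, adjusted p = 0.369). The groups of Mki67 did not overlap, but Em+ replicate 2 carried most of the distance, with 0.051 without it and 0.20 without Em+ replicate 1.

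Among mitotic kinases, Aurka, which acts at spindle poles, had 181 and 164 CPM in Em+ libraries, against 155 and 154 CPM in Em- libraries (log2 fold change 0.16, SE 0.07, adjusted p = 0.206, and 0.087 without Em+ replicate 1). Plk1, which acts from mitotic entry to cell division, had 55.4 and 55.5 CPM in Em+ libraries, against 52.7 and 49.3 CPM in Em- libraries (log2 fold change 0.12, and 0.074 without Em- replicate 2). Aurkb (-0.078) and Birc5, survivin (-0.069), which work together in the chromosomal passenger complex, both overlapped between groups. The spindle motors Kif11 (-0.056) and Kif20a (0.041) and the microtubule factor Tpx2 (-0.10) had small log2 fold changes. Tpx2 passed the filter with a mean of 1.05 FPKM from the 1 transcript model listed for it, whereas the table of known genes gave it 37.5 FPKM and a log2 fold change of -0.0041, and the RefSeq value rests on 142 to 190 counts per library. Birc5 (56.9 FPKM in the RefSeq table and 20.3 FPKM in the known-gene table), Orc1 (14.7 and 2.50 FPKM) and Tyms (3.10 and 8.28 FPKM) also differed in level between the tables, while keeping the sign of their log2 fold change (-0.05, 0.052 and 0.40 in the known-gene table).

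A share that needs no scaling between libraries is the summed FPKM of the 11 G1/S genes as a percent of that of the 21 G2/M genes in the same library. It was 17.7% and 17.0% in Em+ libraries, against 21.1% and 20.5% in Em- libraries, so the groups did not overlap. The summed levels were 183 and 139 FPKM for G1/S in Em+ libraries and 217 and 212 FPKM in Em- libraries, with Cdk4 the largest part. For the G2/M genes the sums were 1033 and 817 FPKM in Em+ libraries and 1029 and 1033 FPKM in Em- libraries, with Top2a the largest part. For the 8 S genes the share was 19.6% and 21.9% in Em+ libraries, against 23.1% and 22.6% in Em- libraries. With 2 libraries a group these shares are given as a description, with no test.

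The Em+ libraries differed from each other more than the Em- libraries did. Over the 39 genes the median absolute log2 ratio between replicates was 0.135 in Em+ and 0.0264 in Em- cells, and the largest was 0.578, for Tyms, in Em+ and 0.220 in Em- cells. Without Em+ replicate 1, 8 of the 39 genes were called higher (Ccne2, Cdt1, Orc1, Tyms, Cdk1, Cenpe, Cenpf and Mki67) and 17 lower, where 41.4% of all tested genes were called. Without Em+ replicate 2, 4 were called higher (Aurka, Cdk1, Cenpe and Cenpf) and 8 lower (Ccnd3, Ccne1, Cdk2, Cdk4, Cdt1, Gmnn, Rrm2 and Wee1), where 16.3% of all tested genes were called. In those fits a lone Em+ library is assumed to vary like the Em- pair. The share of all tested genes given for each fit pools both directions. It is therefore not a background for the higher or the lower genes taken alone. Called in the same direction in both of these fits were Cdk1, Cenpe and Cenpf (higher) and Ccnd3, Ccne1, Cdk2, Cdk4, Gmnn and Rrm2 (lower). Both fits use the same Em- libraries, so this is not independent evidence. The share of all tested genes called in both was not counted. With Em+ replicate 1 left out the G1/S median was -0.28 and the S median -0.18, and with Em+ replicate 2 left out they were -0.17 and -0.13. The G2/M median changed sign, to -0.026 without Em+ replicate 1 and to -0.015 without Em- replicate 2, and was -0.024 with no filter on low values. Transcript length moved with both differences over the 39 genes, which share the 4 libraries. Spearman's rho with length was 0.33 for the log2 fold change and 0.41 for the log2 ratio of Em+ replicate 2 over replicate 1, and the transcripts of Cenpf, Mki67 and Cenpe, at 11122, 10075 and 7813 bases, were the longest. The part of transcript length and of Em+ replicate 2 in the results was not tested.

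**Figure D4:**
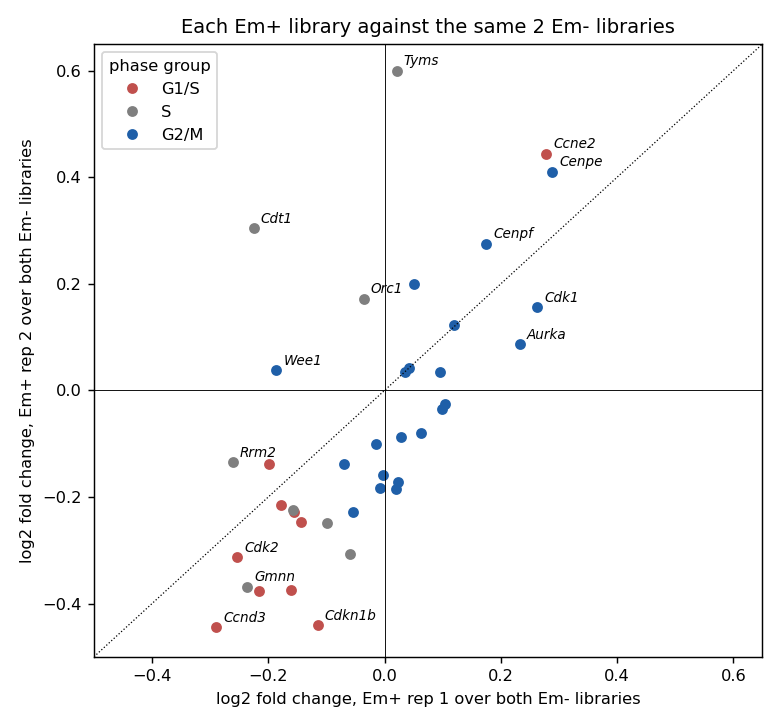
Log2 fold change of Em+ replicate 1 (x axis) and Em+ replicate 2 (y axis) over the same 2 Em- libraries, 1 point per gene, coloured by phase, with the dotted line marking equal values. The axes share the Em- libraries, so points near the line are not independent evidence. Cdt1 lies at -0.23 and 0.30, and Tyms at 0.021 and 0.60.

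Further genes of the same phases were taken from 3 longer lists. As background for each list, 3.82% of all tested genes were called higher and 0.822% lower. The log2 fold change was positive in 6112 of all tested genes and negative in 5938. Of 26 other G1/S regulators 25 were tested (Myc was below the filter), 0 rose and 1 fell, and the median log2 fold change was -0.0055, with 11 positive and 14 negative. The one that fell was Mycn, a Myc family transcription factor of ES cells, at 155 and 147 CPM in Em+ libraries, against 199 and 189 CPM in Em- libraries (log2 fold change -0.36, SE 0.07, adjusted p = 0.0252 in edgeR). Its call was lost when Em- replicate 1 (-0.33) or Em- replicate 2 (-0.40) was left out, with a filter of 5 FPKM (-0.32) and in both limma fits. 

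Of 37 other S phase genes 36 were tested (Clspn was below the filter), 0 were called, 30 had a negative and 6 a positive log2 fold change, and the median was -0.095. In 21 of them both Em+ libraries were below both Em- libraries and in 4 both were above. Over all tested genes these shares were 29.7% below and 29.7% above. At an unadjusted p under 0.05, 6 of the 36 were lower and 1 higher in edgeR, beside 10.7% lower and 14.5% higher over all tested genes. DESeq2 and limma also called 0.

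All 55 other G2/M genes were tested, 2 rose and 0 fell, and the median was 0.035, with 35 positive and 20 negative. Over all tested genes, 3.82% were called higher and 0.822% lower, so 2 of 55 is near that background. Kif14, a motor of cytokinesis, had 173 and 202 CPM in Em+ libraries, against 131 and 129.5 CPM in Em- libraries (log2 fold change 0.53, SE 0.08, adjusted p = 0.0141). Tacc3, which stabilizes spindle microtubules, had 178 and 176 CPM in Em+ libraries, against 126 and 129 CPM in Em- libraries (log2 fold change 0.47, SE 0.06, adjusted p = 0.0049). DESeq2 also called 2 higher, where it called 528 of all 12050 tested genes higher, and limma on log2(FPKM + 1) called 0. The Tacc3 call was lost without Em- replicate 1 (0.45). In 20 of the 55 both Em+ libraries were above both Em- libraries and in 7 both were below. The shares over all tested genes were 29.7% above and 29.7% below.

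**Figure D5:**
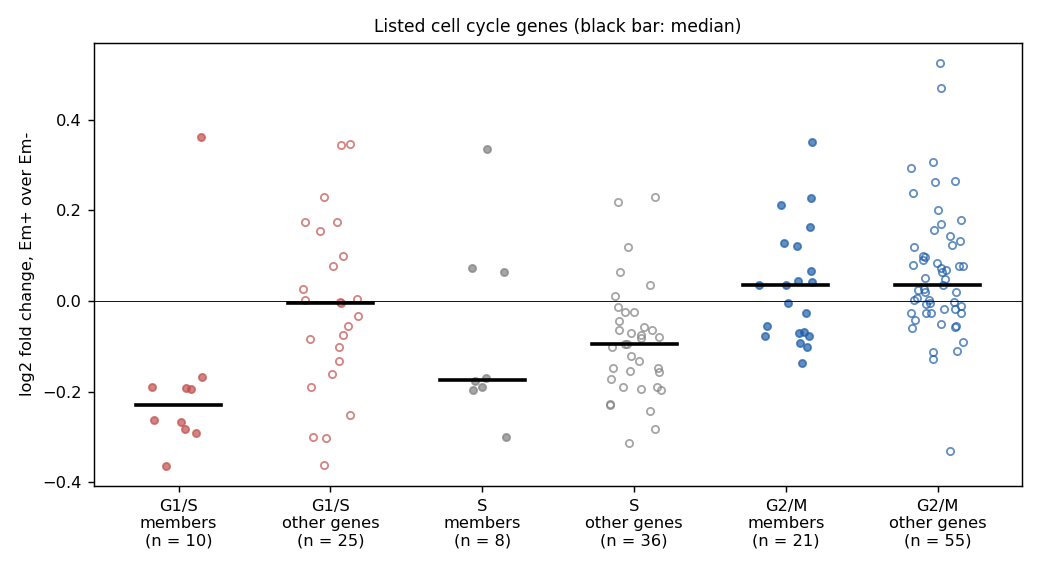
Log2 fold change of Em+ over Em- (y axis) of each tested gene in the 3 phases (filled) and in the longer lists of other genes of the same phases (open), with black bars for medians. The medians are -0.23 and -0.0055 for the 10 G1/S genes and the other G1/S regulators, -0.17 and -0.095 for the S lists, and 0.034 and 0.035 for the G2/M lists.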

How the data were processed

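Per the file headers, the authors deposited a raw count and an FPKM value per transcript and library, in 4 tables, of which the RefSeq and known-gene ones were used here. Per the submitters' processing notes, Bowtie2 and build mm10 were used. The sources used here do not give the counting program or its handling of strand and multiple matches, so overlapping and near-identical genes are uncertain as single entries.

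Counts and FPKM of RefSeq transcripts were summed per symbol. The count column of Em- replicate 1 is empty, so its counts were obtained by multiplying FPKM by transcript length and library total, after adding 0.0005 to values given to 3 decimals. For the other libraries this returned the deposited count for 99.95 to 99.97% of 24538 transcripts, and for Em- replicate 1 it equalled the known-gene count for 99.48% of 13036 shared transcripts.

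edgeR 4.0.16 (R 4.3.3) was run with TMM scaling, a filter of mean FPKM of at least 1, quasi-likelihood tests (two-sided) and Benjamini-Hochberg adjustment over all 12050 genes, with 0.05 as the threshold. The scripts were tested on simulated data. There, 3 of 50 genes changed by a log2 of 0.25 were called, 25 of 50 at 0.5 and 47 of 50 at 1. Changes near 0.25 were thus mostly missed, so a gene not called may still differ by such an amount. Alternatives were DESeq2 1.42.0, RLE size factors, limma 3.58.1 on log2(FPKM + 1) or log2(FPKM + 0.1), no filter, a filter of 5 FPKM, the known-gene table, Rn45s left out, a replicate block and each library left out.

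The 40 genes, their phases and the longer lists were chosen with earlier results of these data known. Library values are given for called genes and, in each phase, for at least the 3 genes with the highest mean FPKM and the 3 with the largest absolute log2 fold change. Of the longer lists, called genes are named.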

Additional observations from a re-analysis of the deposited data

How the results depend on the processing

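The common biological coefficient of variation was 0.0731, and p-values rest on 2 libraries a group. Genes called over the whole table numbered 559, and 293 with limma on log2(FPKM + 1), 269 with limma on log2(FPKM + 0.1), 1178 with no filter, 171 with a filter of 5 FPKM and 490 to 4992 when a library was left out. Cell cycle genes called higher numbered 1, and 0 with both limma fits, no filter, the filter of 5 FPKM and the known-gene table, and 0 to 8 when a library was left out. Those called lower numbered 0, and 1 in DESeq2 (Ccnd3), 2 with no filter (Ccnd3 and Cdk2) and 0 to 17 when a library was left out. RLE size factors and leaving out Rn45s changed no call among the 39.

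Deviations of same-numbered libraries from their group means correlated at 0.0235. With 2 libraries a group, that value cannot tell whether same-numbered libraries shared a culture or sort. With the replicate block, 1552 of 12050 genes were called, 1090 of them higher and 462 lower. Among the cell cycle genes, Ccnd3, Ccne1, Cdk2, Cdk4 and Gmnn (5 genes) were then called lower, and Cenpe higher.

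The FPKM fits moved the median of all genes by -0.135 (pseudocount 1) and -0.160 (0.1), and their values are given relative to it. The G1/S median was negative in every alternative, and ranged from -0.28 to -0.17 when a library was left out. The S median was negative in every alternative too, at -0.23 with no filter and -0.14 with 5 FPKM, and from -0.19 to -0.13 when a library was left out. The G2/M median was -0.024 with no filter, 0.073 with 5 FPKM, and from -0.026 to 0.042 when a library was left out. Genes near 0 changed sign. With no filter these were Cdt1 (-0.00046), Ccna2 (-0.024), Bub1 (-0.017), Cdc20 (-0.024) and Kif20a (-0.017), with 5 FPKM Ccnb1 (0.032) and Cenpa (0.010), and with limma and a pseudocount of 1 Tpx2 (0.00024). When a library was left out, values ranged from -0.036 to 0.17 for Orc1, -0.23 to 0.30 for Cdt1, -0.035 to 0.099 for Ccna2, -0.080 to 0.063 for Ccnb1, -0.19 to 0.038 for Wee1, -0.19 to 0.020 for Bub1b, -0.024 to 0.095 for Cdc20, -0.088 to 0.029 for Cenpa, -0.026 to 0.10 for Kif20a and -0.17 to 0.023 for Birc5. Why the alternatives differ was not tested.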
